A study of Sus scrofa with 70 samples.

Results

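Gene expression in the boar prostate gland (PG) was compared between Diannan small-ear pigs (DSE) and the Banna mini-pig inbred line (BMI). All RNA-seq libraries of this gland were taken, 3 from DSE and 3 from BMI, which makes 6 of the 70 samples of the series and 6 of its 30 RNA-seq libraries. DSE are non-inbred pigs, and BMI were bred from DSE by mating full siblings or parents with offspring, so the comparison is of 1 inbred line with its source breed. All boars were adults aged 12 months, no treatment was given, and the labels do not say whether libraries of 1 breed came from separate boars. P-values therefore measure the spread between these libraries, which may be technical. The second BMI library held transcripts of another gland, so each comparison was made with all 6 libraries and again without it.

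The prostate is an accessory sex gland that adds an enzyme-rich and ion-rich fluid to semen. Its secretory epithelium depends on androgens and is enclosed by smooth muscle, which contracts at ejaculation. In the pig it lies close to the vesicular glands, whose fluid carries spermadhesins, small sperm-coating proteins such as PSP-I and AWN, and the bulbourethral glands, which make a mucus-rich gel.

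The labelled tissue was checked first. Values are in TPM, a measure of transcript abundance that is scaled for transcript length and for the total of a library, and here they were summed over the transcripts of a gene. MSMB, the secreted beta-microseminoprotein of prostate epithelium, took 8.86% to 17.8% of the TPM in the PG libraries, and at most 0.00334% in the 12 libraries of the vesicular and bulbourethral glands. The prostate transcription factor HOXB13 was present in every PG library, at 92.7 to 297 TPM. KLK4, a prostate protease of other species, was listed at 0 in all 6. A gene whose exons overlap a zymogen granule protein 16 homolog B-like (ZG16B-like) gene of RefSeq was the most abundant by its mean without the second BMI library. It took 22.4% to 31.3% of the TPM in the other libraries. In the second BMI library it took 8.60%, below MSMB (8.86%).

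BMI replicate 2 stood apart from the others. A set of 50 genes that mark the vesicular gland, chosen from the libraries of the other glands, took 42.1% of its TPM, against 0.0650% to 0.0732% in the other 5 PG libraries and 50.5% to 67.9% in the vesicular gland itself. PSP-I was at 169569 TPM in BMI replicate 2 and at 1.04 to 9.20 TPM in the others. BMI replicate 3 held the most mitochondrial RNA, 16.7% of the TPM against 2.99% to 6.39%. The number of genes at 1 TPM or more was 12533 to 13014 in BMI and 13345 to 13673 in DSE. TPM values do not carry the number of reads behind them, and the read totals listed in the study were not used here. Counting error is therefore not given for RNA-seq.

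**Figure D1:**
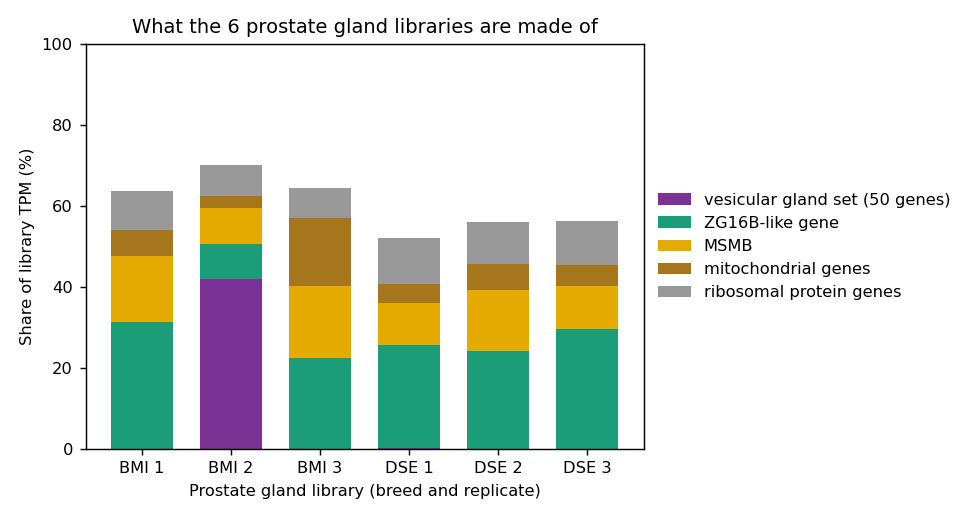
Share of the library TPM (y axis, %) taken by 5 groups of transcripts in each PG library (x axis, breed and replicate), as stacked bars. BMI 2 alone holds a large vesicular gland share (42.1%), and BMI 3 holds the largest mitochondrial share (16.7%).

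With all 6 libraries, 46 of 13416 genes differed between the breeds, which is 0.343% of those tested. Of these, 41 were higher in DSE (0.306%) and 5 lower (0.0373%). Genes that reached 1 TPM in 3 or more libraries were tested with limma. A gene was called where its p, adjusted after Benjamini and Hochberg, was below 0.05 and the breeds differed by 1 or more on the scale of log2(TPM + 1). All differences below are DSE minus BMI on that scale, which understates the change of weakly expressed genes. The median difference of all genes was 0.39. Division by size factors (medians of ratios) moved that median by 0.39 to -0.005, and 11 genes were then higher (0.082%) and 12 lower (0.0894%). Of the 46 genes, 16 were called under both scalings. The DSE and BMI libraries did not overlap for 38% of all genes in the direction of DSE and for 1.81% in that of BMI, so the lack of overlap says little on its own. The calls also rested on single libraries. Without BMI replicate 1, 6 genes were called, and without BMI replicate 3, 12 were, of which 9 were higher. Without replicate 1, 2 or 3 of DSE, limma called 0 genes, with 2125, 4566 and 2286 genes at an unadjusted p below 0.05.

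Among receptors and secreted signals, ADCYAP1R1 and BMP3 had the largest differences. ADCYAP1R1 (chr18:41917425-41972301 of Sscrofa11.1) encodes the receptor of the neuropeptide PACAP. It was at 0.474, 0.315 and 1.70 TPM in BMI replicates 1 to 3 and at 34.2, 45.5 and 30.3 TPM in DSE replicates 1 to 3. Every DSE library was thus far above every BMI library. The difference was 4.42 ± 0.31 (SE), with an adjusted p of 0.00301. BMP3 (chr8:136876726-136905031), a secreted protein of the TGF-beta family that opposes other bone morphogenetic proteins, was at 0.630, 0 and 0.110 TPM in BMI. In DSE it was at 21.98, 23.3 and 23.3 TPM, and the difference was 4.29 ± 0.22 (adjusted p = 0.00182). DSE libraries lay close to each other for this gene, while BMI libraries were at or near 0. Among the 15 genes named by rule, 9 were also called with size factors, which were ADCYAP1R1, BMP3, NRIP3, TDRD9, AK4, SLC39A8, FAAH, CA8 and SHISAL1. The differences of ADCYAP1R1 and BMP3 were then 4.11 (adjusted p = 0.0214 for ADCYAP1R1) and 4.05 (adjusted p = 0.0106).

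A pair of membrane transporters was higher in DSE. SLC39A8 carries zinc, manganese and other divalent metals into cells, and zinc is concentrated in prostate tissue and fluid. It was at 4.94, 2.61 and 5.22 TPM in BMI and at 26.9, 27.2 and 31.6 TPM in DSE, a difference of 2.53 ± 0.25 (adjusted p = 0.0185). SLC16A1 exports and imports lactate and other monocarboxylates. It was at 0.861, 1.94 and 1.10 TPM in BMI and at 9.58, 25.7 and 15.8 TPM in DSE, a difference of 2.89 ± 0.35 (adjusted p = 0.0322). The spread within DSE was wider for SLC16A1 than for SLC39A8. Of the 16 tested genes fixed for zinc transport, metallothioneins and citrate, a list that does not hold SLC39A8, none was called with 6 libraries. The median of that list was 0.43.

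Enzymes were called in both directions. AK4, a mitochondrial adenylate kinase, was at 0.456, 0.788 and 1.03 TPM in BMI and at 11.0, 11.9 and 7.75 TPM in DSE (2.67 ± 0.23, adjusted p = 0.0106). LYZ, the bacteriolytic enzyme lysozyme, was at 0.718, 2.29 and 0.195 TPM in BMI and at 10.9, 10.9 and 13.4 TPM in DSE (2.75 ± 0.36, adjusted p = 0.0388). The breeds did not overlap for either gene, which was a condition for naming them.

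Lower in DSE was FAAH (chr6:165060283-165079767), which breaks down anandamide and related fatty acid amides. It was at 8.64, 19.0 and 10.4 TPM in BMI and at 0.852, 0.518 and 0.651 TPM in DSE, a difference of -2.96 ± 0.29 (adjusted p = 0.0185). CA8, a carbonic anhydrase relative without that activity, was at 14.2, 17.0 and 19.8 TPM in BMI and at 2.27, 2.06 and 3.38 TPM in DSE, a difference of -2.34 ± 0.22 (adjusted p = 0.0163). SHISAL1, a small membrane protein, was at 3.20, 4.20 and 3.67 TPM against 0.453, 0.287 and 0.672 TPM. BMI replicate 2 was not the lowest BMI library for any of these 3 genes. The vesicular gland itself held FAAH at a mean of 20.2 TPM and CA8 at 18.0 TPM in BMI, and its part in BMI replicate 2 was not tested. With the vesicular gland set taken out of the libraries FAAH (adjusted p = 0.0702) and SHISAL1 (adjusted p = 0.102) were not called, and CA8 was (adjusted p = 0.0394). FAAH and SHISAL1 could not be tested without it, since only the other BMI libraries were then above 1 TPM.

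The remaining named genes were higher in DSE and mostly near 0 in BMI. NRIP3 was at 0.227 to 0.628 TPM in BMI and at 9.97 to 12.8 TPM in DSE, with an adjusted p of 0.00272. TDRD9, a helicase of the piRNA pathway known from germ cells, was at 0 to 0.0938 TPM in BMI and at 6.29 to 21.6 TPM in DSE. CGREF1, a secreted protein with EF hands, rose from 2.37 to 5.12 TPM in BMI to 29.8 to 58.4 TPM in DSE. STAC2, which binds voltage-gated calcium channels, was at 1.63 to 3.89 TPM in BMI and 18.3 to 49.0 TPM in DSE. NKAIN3 and PPP1R36 were at 0 to 0.410 TPM in BMI and at 2.76 to 7.16 TPM in DSE. Named outside the rule, after their values were seen, are SHMT2 and MTHFD1, both enzymes of folate-dependent one-carbon metabolism. SHMT2 was at 14.3 to 15.4 TPM in BMI and 32.5 to 36.8 TPM in DSE (adjusted p = 0.0485). MTHFD1 was at 8.99 to 11.6 TPM in BMI and 24.6 to 32.3 TPM in DSE (adjusted p = 0.0439). SOD3, the extracellular superoxide dismutase and a member of the detoxification list, was at 7.94 to 11.3 TPM and 32.7 to 39.9 TPM (adjusted p = 0.0227). With the vesicular gland set taken out, CGREF1, SLC16A1, STAC2, LYZ, NKAIN3 and PPP1R36 were not called either, with adjusted p from 0.0694 to 0.140. With size factors SHMT2, MTHFD1 and SOD3 were not called, with adjusted p of 0.165, 0.0693 and 0.0936.

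**Figure D2:**
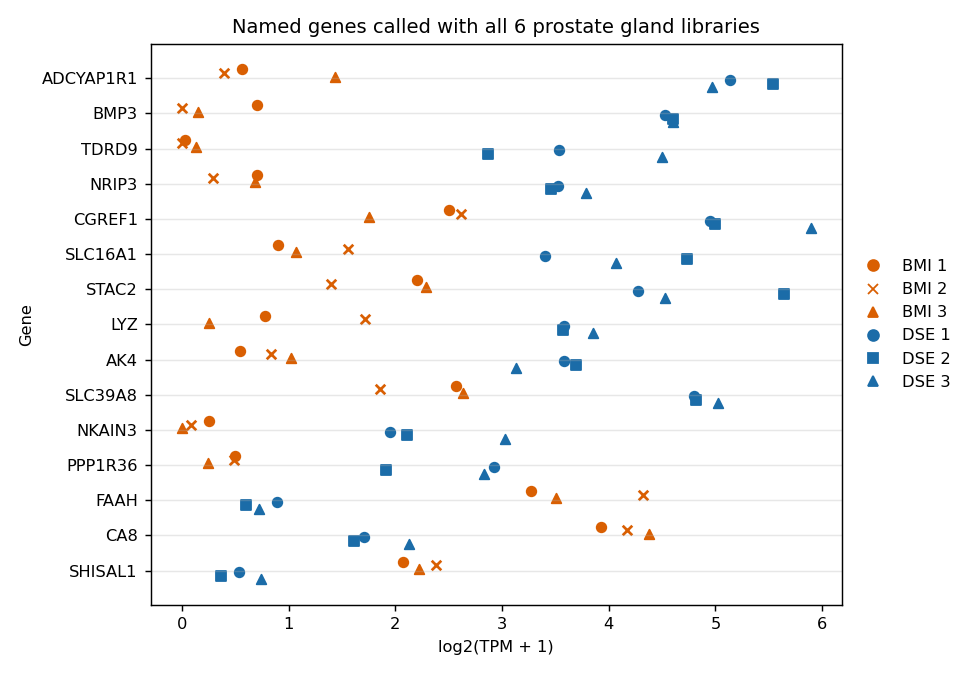
Expression (x axis, log2(TPM + 1)) of the 15 named genes called with all 6 libraries (y axis), with 1 point per library and BMI in orange, DSE in blue. For each gene the breeds fall in separate ranges, which was a condition for naming it, so BMI 2 (crosses) lies on the side of the other BMI libraries.

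Most named genes differed less in other glands than in the prostate. The prostate difference was tested minus the mean of the differences in testis, epididymis, vesicular gland and bulbourethral gland. This test, fitted on all 30 RNA-seq libraries, called 37 of 19796 genes (0.187%), 31 of them in the direction of DSE. Its median over all genes was 0.36. With size factors the median was 0.05, and 20 genes were higher and 17 lower. A call can also come from the other glands, as for TMEM179 (1.25), at 0 to 0.0193 TPM in the prostate. Of the 15 genes named above, 10 were among the 37 called. In limma fits of single glands, TDRD9 was also called higher in DSE bulbourethral gland (3.08, adjusted p = 0.0305). CGREF1 was likewise called higher in DSE vesicular gland (1.87, adjusted p = 0.0342). NRIP3 had the lowest p, with a prostate difference 3.16 above that of the other glands (adjusted p = 1.07e-06). BMP3 followed with 3.64 (adjusted p = 1.07e-05), NKAIN3 with 2.35 (adjusted p = 0.000103) and FAAH with -3.22 (adjusted p = 0.000119). NKAIN3 was at means of at most 0.893 TPM in each of the other glands, and NRIP3 of at most 0.930 TPM in all but testis. BMP3 was at means of at most 1.01 TPM in all but bulbourethral gland. At such levels the log2(TPM + 1) scale leaves little room for a breed difference. FAAH was at mean levels of 14.5 to 35.5 TPM in both breeds in testis, epididymis and vesicular gland, and at 0.814 TPM in BMI and 0.643 TPM in DSE bulbourethral gland. ADCYAP1R1 had a mean of 20.1 TPM in BMI and 44.1 TPM in DSE testis, and its prostate difference exceeded the others by 3.95 (adjusted p = 0.000864). LYZ was at means of 236 and 298 TPM in BMI and DSE bulbourethral gland, well above its level in the prostate of either breed. CA8, SLC39A8, STAC2, PPP1R36 and SHISAL1 did not pass this test, with adjusted p from 0.0610 to 0.348. Without BMI PG replicate 2 the test called 31 genes (0.157%), 18 higher and 13 lower. TDRD9 (adjusted p = 0.0694) and AK4 (adjusted p = 0.0662) were then not called.

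**Figure D3:**
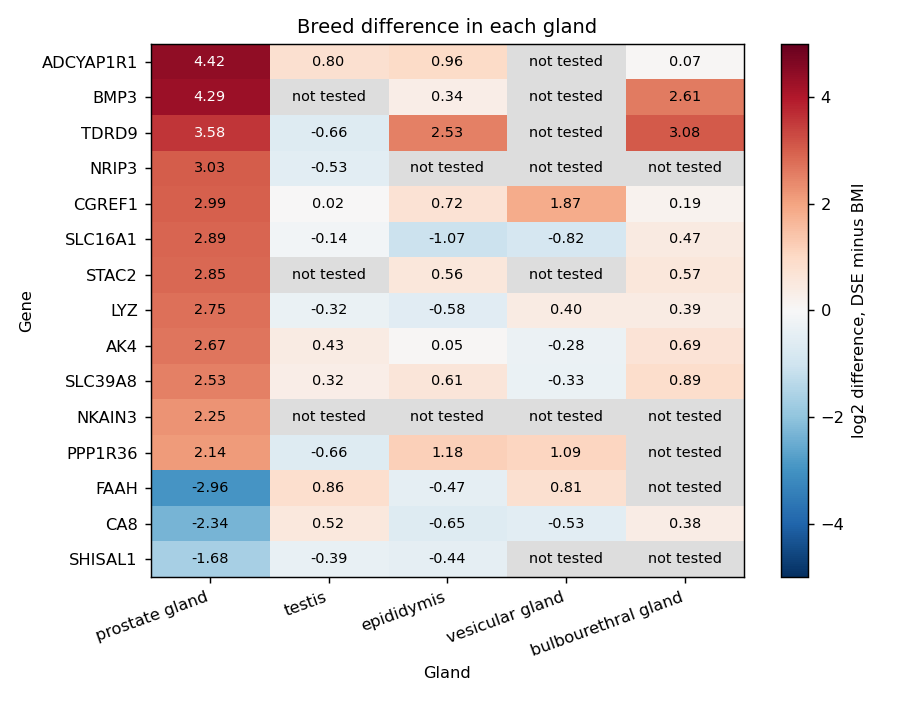
Difference between the breeds (colour and number, log2 scale, DSE minus BMI) of the 15 named genes (y axis) in each of the 5 glands (x axis), with genes under the expression filter marked as not tested. Values beyond 2 in either direction stand mainly in the prostate column, with TDRD9 also high in epididymis and bulbourethral gland and BMP3 in bulbourethral gland.

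Other called features were also apart between the breeds in other glands, by overlap of the libraries and not always by the test. For 7 of the 46 the breeds did not overlap, in the same direction, in all 4 other glands, and for 16 in none of them. The 7 were described after their values were seen, and all 7 were higher in DSE. Over all tested genes the breeds did not overlap in the direction of DSE for 7.7% in testis, 2.72% in epididymis, 1.72% in vesicular gland and 5.13% in bulbourethral gland. In the direction of BMI the shares were 17.1%, 2.57%, 26.2% and 5.58%. None of the 46 was called in epididymis with limma, and of the 7 the TRNAQ-CUG, ENSSSCG00000036516 and C4BPA-overlapping features were called in no other gland. One joins 2 genes annotated next to each other in the class I region of the major histocompatibility complex (chr7:22869147-22942727) and overlaps SLA-3 of RefSeq. It was at 6.15, 1.14 and 1.01 TPM in BMI PG and at 64.8, 49.1 and 50.9 TPM in DSE PG, and was called in testis, vesicular gland and bulbourethral gland too (differences 4.32, 3.53 and 3.95). Class I genes are near-identical copies of each other and vary between animals, so reads may be split among them. The single-gene feature of SLA-3 differed by 0.51 and was not called (93.8 to 149 TPM in BMI, 173 to 191 TPM in DSE). ENSSSCG00000001458 (chr7:24993912-25001567) was at 0, 0.108 and 0.230 TPM in BMI and at 29.6, 28.2 and 16.1 TPM in DSE. A joined feature that overlaps C4BPA, a complement inhibitor, was listed at 0 in all BMI PG libraries and at 10.8, 7.63 and 3.78 TPM in DSE. Between 22 and 26 Mb of chromosome 7, a window set after these calls were seen, 3 of 111 tested genes were called, against 7 of 865 on the chromosome and 0.343% of all genes. In background, 3 genes were called between the breeds in bulbourethral gland (0.0219% of those tested), 154 in vesicular gland (1.22%), 101 in testis (0.619%) and 0 in epididymis, where 288 had an unadjusted p below 0.05.

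Without BMI replicate 2, with 2 BMI and 3 DSE libraries, 934 of 13226 genes were called (7.06%), 804 higher (6.08%) and 130 lower in DSE (0.983%). Of the 46 genes called with 6 libraries, 42 were called here and the other 4 could not be tested. With size factors the split was 311 higher (2.35%) and 335 lower (2.53%), the median of all genes moved from 0.36 to 0.009, and 439 genes were called under both scalings. The breeds did not overlap for 48.7% of all genes in the direction of DSE and for 8.99% in that of BMI. The number also turned on single libraries. Without BMI replicate 3, the one with the most mitochondrial RNA, 29 genes were higher and 3 lower, and without BMI replicate 1 these were 1083 and 197. Either leaves a single BMI library, which is assumed to vary as the DSE libraries do. The study also lists a lower transcript integrity for this library than for the other PG libraries, and the part of RNA quality in the calls was not tested. Without DSE replicate 3 these were 69 and 13, and without DSE replicate 1 they were 192 and 56.

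Without BMI replicate 2, genes of smooth muscle had the largest median difference of the lists. All 11 tested members of the 12 were called higher in DSE, against 6.08% of all genes, with a median of 3.12. All 11 were also called with size factors, where the median was 2.72, but 0 were called with limma with no filter on low values and 3 in one fit of all glands. In bulk tissue, more smooth muscle cells and more RNA per cell cannot be told apart. ACTG2, the gamma actin of visceral smooth muscle, was at 27.9 TPM in BMI replicate 1, 7.57 TPM in replicate 3, and 376, 232 and 618 TPM in DSE, a difference of 4.59 ± 0.56 (adjusted p = 0.0122). MYH11, the smooth muscle myosin heavy chain, was at 44.4 and 16.1 TPM in BMI and at 383, 217 and 375 TPM in DSE (3.50 ± 0.44, adjusted p = 0.0127). SYNM, an intermediate filament protein, was at 2.18 and 0.377 TPM in BMI and 40.7, 29.2 and 48.2 TPM in DSE (adjusted p = 0.00474). The smallest difference was that of SMTN, 1.43, and the 3 members with the highest levels were TAGLN, ACTA2 and DES.

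BMI replicate 2 did not share this low level. It held ACTG2 at 274 TPM, MYH11 at 272 TPM and SYNM at 35.5 TPM, within or near the DSE range. The summed TPM of the list was 499 and 253 in BMI replicates 1 and 3, 2618 in BMI replicate 2, and 2099 to 4447 in DSE. With all 6 libraries 0 of 11 members were called with limma and the median was 2.26. In the comparison without BMI replicate 2, leaving out BMI replicate 3 as well left 2 of 11 calls with a median of 2.74, and leaving out BMI replicate 1 left 11 with a median of 3.61, in both cases with the spread taken from DSE alone. Leaving out DSE replicate 3 left 9. The part of the vesicular gland RNA in the level of BMI replicate 2 was not tested. In the test against the other glands 0 of 11 members were called.

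Markers of other cell types moved less. Beside 6.08% of all genes called higher, 1 of 12 fibroblast and matrix genes was called, PDGFRA, and the median was 1.48. With size factors 0 were called with limma and the median was 1.07, with a minimum of 5 TPM in 2 libraries 4 were called, and with a replicate block 9. Summed, this list was at 800 and 214 TPM in BMI replicates 1 and 3 and at 675 to 2148 TPM in DSE. Among 9 tested macrophage genes CD163, MRC1 and CD68 were called and the median was 1.10. None was called with all 6 libraries, with no filter on low values, in one fit of all glands, or when BMI replicate 3, DSE replicate 1 or DSE replicate 3 was left out as well, and 8 were called with a replicate block. The 10 endothelial genes had a median of -0.22 and the 10 genes of epithelia in general one of 0.11, and none of either was called. Skeletal muscle markers were nearly absent, with a sum of 2.36 to 24.1 TPM. Their part in the smooth muscle result was not tested.

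Immediate early genes, transcription factors and signal regulators that are induced within minutes of a stimulus, formed the second group. Of 19 tested members 13 were called higher, against 6.08% of all genes, and 0 lower, and the median was 1.48 against 0.36. With size factors 8 were called, with no filter on low values 0, and in one fit of all glands 2. FOS, a subunit of the AP-1 transcription factor, was at 2.65 and 0.833 TPM in BMI replicates 1 and 3 and at 103, 152 and 66.8 TPM in DSE (5.31 ± 0.40, adjusted p = 0.00279). It was the largest difference among the called genes named here. EGR1, a zinc finger transcription factor, was at 3.88 and 1.58 TPM in BMI and at 62.4, 38.1 and 65.4 TPM in DSE (3.95 ± 0.34, adjusted p = 0.00474). CCN2, a matrix-associated growth factor, was at 14.1 and 4.05 TPM in BMI and at 204, 43.1 and 291 TPM in DSE (3.98 ± 0.80, adjusted p = 0.0317).

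Here too BMI replicate 2 differed from the other BMI libraries, and for many members it lay above DSE. CCN2, at 101 TPM in it, lay within the DSE range. FOS was at 838 TPM and EGR1 at 255 TPM in it, and DUSP1, a phosphatase that switches off MAP kinases, at 965 TPM against 24.8 to 127 TPM in the other 5. The summed list was 321 and 327 TPM in BMI replicates 1 and 3, 1066 to 1304 TPM in DSE and 4383 TPM in BMI replicate 2. With all 6 libraries 0 of 21 tested members were called with limma. In the comparison without BMI replicate 2, leaving out BMI replicate 3 as well left 2 calls with a median of 1.47, the spread then coming from DSE alone. Leaving out DSE replicate 1 left 8 calls and DSE replicate 3 left 4. The part of the vesicular gland RNA was not tested here either.

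**Figure D4:**
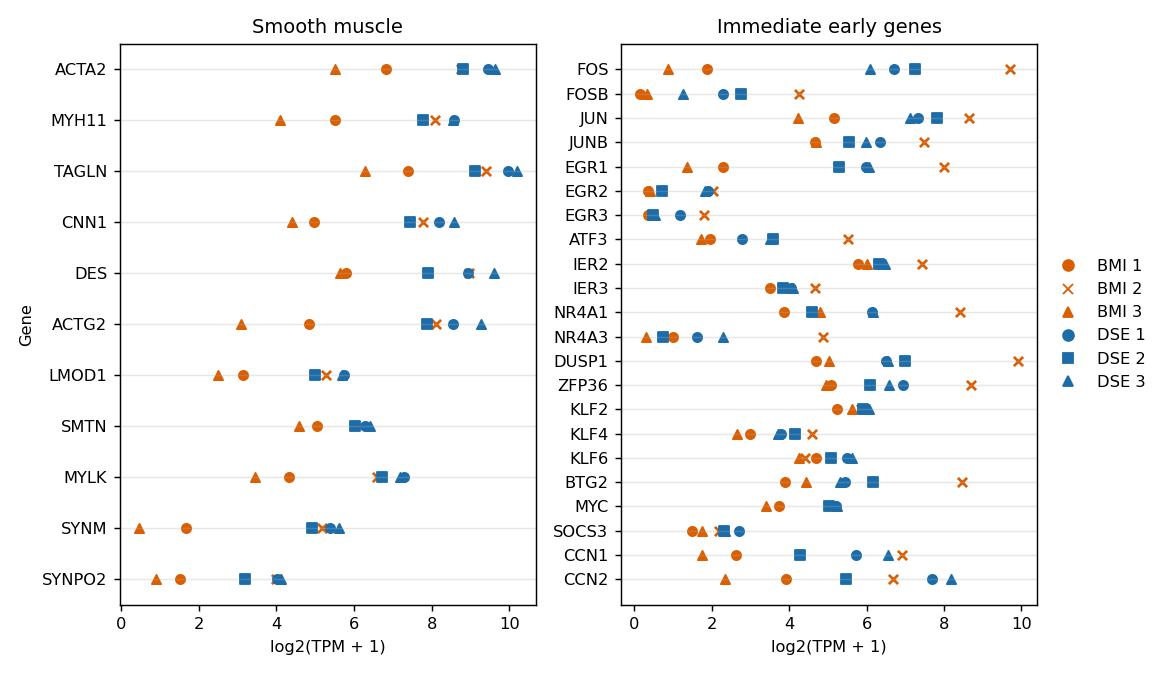
Expression (x axis, log2(TPM + 1)) of the smooth muscle genes (left) and immediate early genes (right), 1 row per gene and 1 point per library, BMI in orange and DSE in blue. BMI 1 and BMI 3 lie lowest for the smooth muscle genes, while BMI 2 (crosses) lies among the DSE libraries there and above them for many immediate early genes such as FOS and DUSP1.

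Serum response factor binds the CArG box, which is known from promoters of both groups. The window from 250 bases before to 50 bases after the start of the leading transcript was searched for it in the Sscrofa11.1 genome of RefSeq. It was found in 1 of 11 smooth muscle genes, 1 of 19 immediate early genes and 1.24% of all 12979 windows, and in 27 of the 789 windows of genes called higher. A match is a run of letters and not a shown binding site. The matches of EGR1 (chr2:140441298-140441327 and chr2:140441320-140441349, plus strand) and of MYLK, the kinase that starts smooth muscle contraction (chr13:136802887-136802916, plus strand), are shown since both genes were called, with the box in capitals.
EGR1, first box: gccggtcttgCCATATTAGGgcttcctgct
EGR1, second box: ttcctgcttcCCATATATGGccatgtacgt
MYLK: ataaactatcCCTTTTATGGgagttgaagc

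The boxes of EGR1 start 105 and 83 bases before the transcript start and that of MYLK 63 bases before, where the leading transcript of MYLK starts inside the annotated gene. EGR1 is the gene at 1.58 to 3.88 TPM in BMI replicates 1 and 3 described above. MYLK was at 19.1 and 9.98 TPM in these and at 156, 104 and 145 TPM in DSE, with 95.4 TPM in BMI replicate 2. The window of FOS held no such run of letters. Bases farther than 250 before that start, and the starts of its other transcripts, were not searched.

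Further named genes higher in DSE act in protein folding and stress. AGR2, a disulfide isomerase needed for mucin folding, was at 231, 168 and 41.8 TPM in BMI replicates 1 to 3 and at 2184, 740 and 1445 TPM in DSE. Without BMI replicate 2 the difference was 3.74 ± 0.71 (adjusted p = 0.0290), and with it 3.48 (adjusted p = 0.0675). NUPR1, a stress-induced nuclear protein, was at 62.4, 48.8 and 16.1 TPM in BMI and at 316, 1056 and 164 TPM in DSE (adjusted p = 0.0381, and 0.0798 with size factors). In contrast to the muscle genes, BMI replicate 2 was low for both. Of 21 genes of the secretory path and the unfolded protein response, 6 were called higher and 0 lower without BMI replicate 2, with a median of 0.89 against 0.36 for all genes. The breeds did not overlap for 17 of the 21, where they did not for 48.7% of all genes in that direction and 6.08% were called. PDIA3, a disulfide isomerase of the endoplasmic reticulum, was at 264 and 224 TPM in BMI and 447 to 784 TPM in DSE (1.29, adjusted p = 0.0325). HSPA5, the chaperone of that compartment, was at 121 and 131 TPM in BMI and 215 to 417 TPM in DSE (1.34, adjusted p = 0.0353). With size factors none of the 21 was called with limma and the median was 0.49, and none was called either with all 6 libraries, with no filter on low values, in one fit of all glands, or when BMI replicate 3, DSE replicate 1 or DSE replicate 3 was left out as well. With a replicate block 12 were called. RAB1B by the gene table, a feature whose exons overlap CNIH2 of RefSeq and whose name is thus uncertain, was at 1.22 and 0.714 TPM in BMI and 21.5 to 37.8 TPM in DSE.

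Among the genes lower in DSE without BMI replicate 2 were membrane and secretory proteins. AQP3, a channel for water and glycerol, was at 169, 92.2 and 118 TPM in BMI replicates 1 to 3 and at 22.05, 7.58 and 45.3 TPM in DSE. All BMI libraries lay above all DSE libraries. Its difference was -2.77 ± 0.62 (adjusted p = 0.0368) without BMI replicate 2 and -2.56 (adjusted p = 0.0801) with it. It was the only called member of the 13 tested genes of water and ion transport. IGFBP5, a binding protein of insulin-like growth factors, was at 191, 54.4 and 245 TPM in BMI and at 29.2, 30.5 and 21.9 TPM in DSE (-2.96 ± 0.22, adjusted p = 0.00248). ERN2, an endoplasmic reticulum stress sensor of mucous epithelia, was at 45.1, 6.95 and 10.9 TPM in BMI and at 0.794, 1.33 and 0.671 TPM in DSE (-3.62 ± 0.51, adjusted p = 0.0176). CRISP3, a cysteine-rich secretory protein of seminal fluid, was at 88.1 and 149 TPM in BMI replicates 1 and 3 and at 8.51 to 12.8 TPM in DSE (adjusted p = 0.00397), but at 4.67 TPM in BMI replicate 2. SMIM32, a small membrane protein, had the largest difference in this direction, -4.86 ± 0.75 (adjusted p = 0.0210). It was at 40.2, 17.3 and 317 TPM in BMI, so the size rests largely on BMI replicate 3, and at 1.76 to 3.97 TPM in DSE. ERN2 and SMIM32 also passed the test against the other glands with all libraries (-2.81, adjusted p = 0.00419, and -3.96, adjusted p = 0.00144). The other named genes were GFRA1, a receptor of GDNF family ligands, with C16orf89, PLEKHS1, POU2AF3, CYP4F55 and DERPC, with differences from -2.12 to -3.38. In BMI replicate 2 DERPC was at 0 TPM, POU2AF3 at 1.10 TPM lay below the DSE libraries, and GFRA1 (1.53 TPM), PLEKHS1 (3.25 TPM) and CYP4F55 (19.0 TPM) lay within their range, while C16orf89 was highest there (20.4 TPM).

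Several of these genes are also markers of the bulbourethral gland. In a set of 50 genes of that gland, chosen from the other glands as for the vesicular set, 41 were tested without BMI replicate 2, 5 were higher and 6 lower in DSE, and the median was 0.09. Of all genes 6.08% were higher and 0.983% lower. AGR2, CGREF1 and LYZ were among those higher, and CRISP3, ERN2 and PLEKHS1 among those lower. Leaving out the ZG16B-like gene, the set took 0.388% to 1.35% of the TPM in BMI and 1.49% to 2.43% in DSE. The part of bulbourethral tissue in these differences was not tested.

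None of the 8 tested genes of prostate luminal epithelium was called in either comparison. MSMB was at 16.2%, 8.86% and 17.8% of the TPM in BMI and at 10.3%, 15.0% and 10.6% in DSE. The difference without BMI replicate 2 was -0.53, with an adjusted p of 0.302, and -0.21 with it (adjusted p = 0.733). The ZG16B-like gene took 31.3%, 8.60% and 22.4% in BMI and 25.5%, 24.03% and 29.6% in DSE. Its difference was 0.53 (adjusted p = 0.50) with all 6 libraries and -0.01 (adjusted p = 0.986) without BMI replicate 2, so the sign rests on that library. Of 13 tested androgen-responsive genes 3 were called higher without BMI replicate 2 (NDRG1, ZBTB16 and ACSL3), against 6.08% of all genes, and the median was 0.73 against 0.36. With size factors 1 was called and the median was 0.35. FCGBP, a mucin-like protein that binds IgG Fc, was at 2700 to 10054 TPM in BMI and at 10233 to 18470 TPM in DSE. It differed by 1.15 (adjusted p = 0.174) with all 6 libraries and by 0.54 (adjusted p = 0.230) without BMI replicate 2, which held the 2700 TPM. SAL1, a salivary lipocalin that carries pheromones in the boar, was at 60580 TPM in DSE replicate 2 and at 1.47 to 1777 TPM in the other libraries, and its difference did not pass the test with all 6 libraries (7.03, adjusted p = 0.103) or without BMI replicate 2 (5.34, adjusted p = 0.128).

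The remaining lists are given beside the 7.06% of all genes called without BMI replicate 2 and their median of 0.36, and most lists had few calls. No member was called in either comparison for basal epithelium, urothelium, seminal plasma proteins, plasma cells and IgA transport, red blood cells, steroid receptors, MHC and antigen presentation, proliferation or skeletal muscle. In the MHC list the median was 0.27 over 19 genes without BMI replicate 2, below that of all genes. Antimicrobial and acute phase proteins had LYZ, LCN2 and SLPI called of 6 tested, with a median of 1.55. C5 was the called member of 17 complement genes, whose median was 1.19. Cholesterol and fatty acid synthesis had HMGCS1 and SQLE called of 21, and glycolysis and hypoxia had SLC2A3 and HK2 called of 17, shares close to that of all genes. GPX3, the secreted glutathione peroxidase, and SOD3 were called of 19 detoxification genes. Single members were called for lymphocytes (PTPRC of 5), nerve (PMP22 of 7), adipocytes (LPL, the only one tested), polyamines (AMD1 of 11), zinc (SLC39A2 of 16), interferon (IFI44 of 19), heat shock (HSPB8 of 12) and the clock (CRY1 of 18). Protease inhibitors had SLPI and TIMP2 of 15. With size factors, of these called members, LYZ, LCN2, SLC2A3, SOD3, SLC39A2, HSPB8 and TIMP2 were still called and the others were not. With all 6 libraries LYZ, SOD3 and HSPB8 were.

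**Figure D5:**
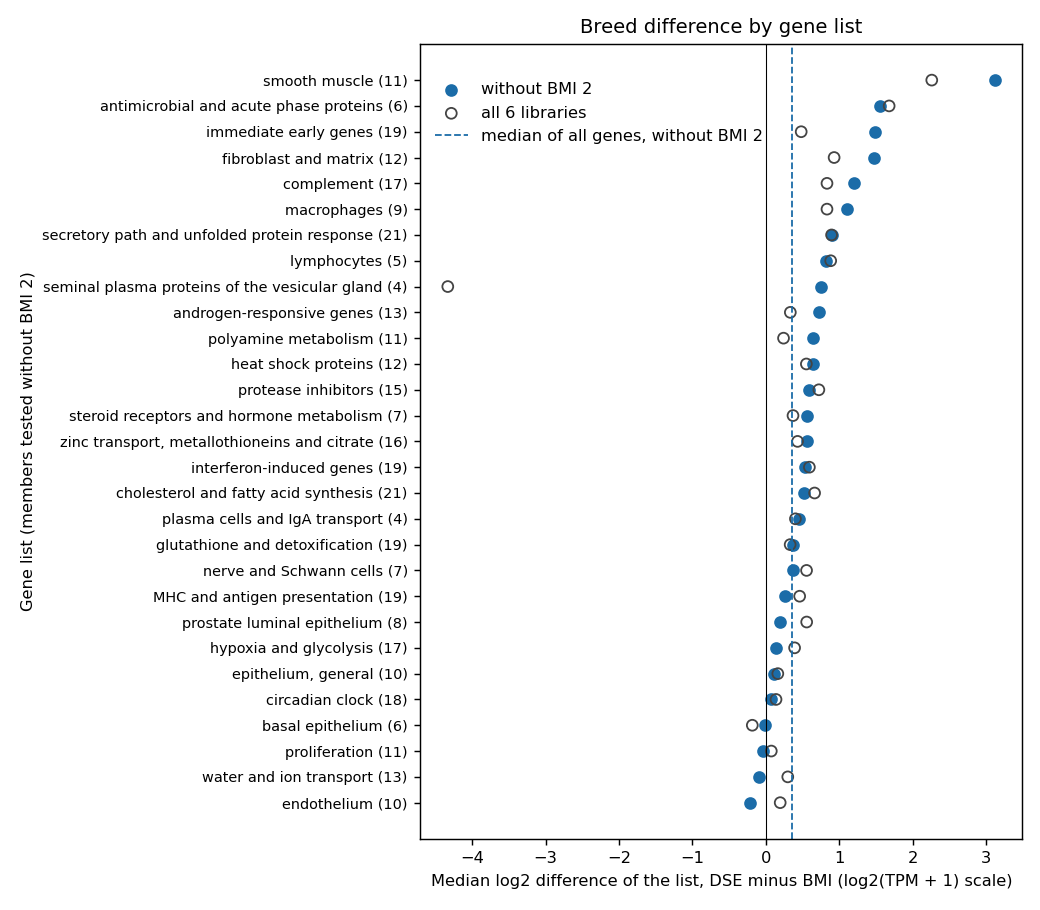
Median breed difference (x axis, log2 scale, DSE minus BMI) of each gene list with at least 4 members tested (y axis, number tested in brackets), without BMI 2 (filled) and with all 6 libraries (open), with the median of all genes as a dashed line. Smooth muscle stands highest at 3.12 without BMI 2, and the seminal plasma proteins stand lowest with all 6 libraries.

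The full-length reads of Iso-seq gave a further look at the same glands, with 1 PG library per breed and therefore no test between the breeds. Counts were set against totals of 263309 reads in BMI and 336015 in DSE, with exact Poisson 95% intervals that cover counting error only. Of the 15 genes named with 6 libraries, the intervals of 7 lay apart in the direction seen in RNA-seq and none in the opposite one. BMP3 had 0 reads in BMI, which allows up to 1.40 per 100000 reads, and 30 in DSE, or 8.93 per 100000 (6.02 to 12.7). SLC39A8 had 7 and 68 reads, SLC16A1 3 and 34, and AK4 0 and 11. FAAH had 22 reads in BMI and 0 in DSE, which allows up to 1.10 per 100000 there, and CA8 had 30 and 7.

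For the genes named without BMI replicate 2, Iso-seq went both ways. Of 20 with reads or isoforms listed, 5 lay apart in the same direction and 5 in the opposite one. MYH11 had 163 reads per 100000 in BMI (148 to 179) and 36.9 in DSE (30.7 to 44.0), and ACTG2 22.4 and 7.74. FOS was at 12.2 in BMI and 27.7 in DSE, while EGR1 was at 6.84 and 1.49. Summed over the lists, smooth muscle genes had 576 reads per 100000 in BMI and 188 in DSE, and immediate early genes 280 and 169. Both sums were thus higher in BMI, opposite to RNA-seq without BMI replicate 2. AGR2 was higher in DSE (2.28 and 15.8) and AQP3 lower (9.11 and 0.595). The BMI PG library of Iso-seq also held the vesicular gland set, at 13.1% of its reads against 0.271% in DSE, and PSP-I had 4029 and 0 reads. Like BMI replicate 2 of RNA-seq, it is thus a BMI library with vesicular gland transcripts and with smooth muscle transcripts at a high level.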

How the data were processed

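Gland tissue of BMI and DSE boars aged 12 months was sequenced by the authors (the labels name rRNA depletion, the methods poly-T beads). RNA-seq values were deposited as TPM per transcript, which the authors made with Salmon 1.9.0 from a merged annotation of Iso-seq isoforms and Ensembl genes on Sscrofa11.1. Iso-seq values were deposited as counts of full-length reads per isoform without normalization. TPM were summed here to 35552 genes and joined genes. Symbols came from a gene table, isoform names or, for 1268 genes, RefSeq genes with at least 50% exon overlap.

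Genes were fitted as log2(TPM + 1) with limma 3.58.1 (intensity trend) in R 4.3.3. The 6 and the 5 prostate libraries were fitted separately, and the comparison with other glands used all 30 libraries. Replicate numbers were not paired, since deviations of same-numbered libraries correlated at -0.03, -0.19 and -0.06. Named genes are, per comparison, up to 12 called genes in each direction with a symbol, the largest difference and no overlap of the breeds, with the 10 most abundant genes, 5 vesicular genes, and called or abundant members of 33 lists. Of 507 listed symbols 26 were not found. Members and lists were chosen with earlier results of these data known. Gland sets hold 50 genes with at least 20 TPM in their gland and the largest ratio to the other glands. Alternatives changed the pseudocount, filter, scaling, fit, block or libraries. The fits were tested on simulated data. Python 3.11.15 was used otherwise. Small RNA was not used. A few items are not reported here.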

Additional observations from a re-analysis of the deposited data

Results flagged for a closer look

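These named genes were marked because the test of the prostate difference minus the mean difference in the other 4 glands (limma on all 30 RNA-seq libraries) passed. All values are log2 differences of DSE minus BMI. Those above the other glands were ADCYAP1R1 (3.95), BMP3 (3.64), SLC16A1 (3.29), NRIP3 (3.16), LYZ (2.77), AK4 (2.45), NKAIN3 (2.35), CGREF1 (2.29) and TDRD9 (2.01). Those below were SMIM32 (-3.96), FAAH (-3.22) and ERN2 (-2.81). TDRD9 was also called higher in DSE bulbourethral gland and CGREF1 in DSE vesicular gland, so these differences are not particular to the prostate. NKAIN3 was at means below 1 TPM in each other gland, and NRIP3 in each but testis. Without BMI replicate 2 the values of NRIP3, BMP3 and FAAH were 3.03, 3.50 and -2.91, and TDRD9 and AK4 no longer passed (adjusted p = 0.0694 and 0.0662). Groups of 3 libraries are too small for a test of single outlying libraries.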

How the results depend on the processing

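Counts are given as genes higher and lower in DSE. With 6 libraries 41 and 5 were called, and 15 and 4 with a pseudocount of 0.1, 0 and 0 with no filter on low values (5756 of 27903 at an unadjusted p below 0.05), 27 and 2 with a minimum of 5 TPM in 2 libraries, 11 and 12 with size factors, 12 and 3 with the vesicular gland set taken out, 107 and 22 in one fit of all glands, and 0 and 0 with a replicate block (4029 at an unadjusted p below 0.05). Leaving out 1 library gave 0 to 804 higher and 0 to 130 lower. Without BMI replicate 2, 804 and 130 were called, and 9 and 7 with no filter, 311 and 335 with size factors, 88 and 40 in one fit, and 1531 and 190 with the replicate block. Leaving out 1 further library gave 29 to 1191 higher and 3 to 197 lower. Against the other glands 31 and 6 were called, 20 and 17 with size factors and 9 and 2 with the replicate block, and 17 to 25 and 4 to 13 with 1 library left out. The cause was not tested. The called genes chosen by rule from the prostate comparisons kept their direction in every alternative that tested them. They were chosen with no overlap between the breeds, so leaving out a library could not reverse it. They stayed called in 118 of 217 such values with 6 libraries and in 280 of 341 without BMI replicate 2. Replicate numbers are shared without pairing. With 2 or 3 libraries per breed, TPM without read numbers and a scaling that moves the median of all genes by 0.39 and 0.35, the number of genes called is not firm.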

Other observations

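The test of the prostate difference minus that of the other glands also called genes outside the naming rule, given here after their values were seen. ZG16B, a secreted lectin-like protein listed apart from the abundant ZG16B-like gene, was at 147, 53.4 and 295 TPM in BMI prostate and at 717, 522 and 1169 TPM in DSE (2.86 above the other glands, adjusted p = 0.00164). SUCO, a protein of the endoplasmic reticulum, was at 26.4, 55.8 and 22.6 TPM in BMI and at 129, 120 and 95.9 TPM in DSE (1.86, adjusted p = 0.0335). B4GALNT2, a glycosyltransferase of the Sda antigen, was at 0.939 to 2.32 TPM in BMI and 6.31 to 12.1 TPM in DSE. ADORA1, an adenosine receptor, lay the other way, at 14.4, 0.843 and 21.9 TPM in BMI and at 0, 0.166 and 0 TPM in DSE (-3.02, adjusted p = 0.0335). The breeds did not overlap for any of these 4 genes, and BMI replicate 2 was the lowest library of its breed for all but SUCO.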
